A study of Mus musculus with 4 samples.

Results

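Bone morphogenetic protein (BMP) signalling was followed through 33 genes, of 21814 genes in the deposited count tables: 10 ligands, the protease Bmp1, 6 receptors, 7 antagonists, 5 Smads and 4 Id genes. The members were taken by name, for their place in the pathway, but with earlier results of these data known. Their shares beside those of all genes are therefore descriptions and not tests. The RNA came from aggregates of iMN-ESCs, derived from mouse embryonic stem cells of C57BL/6 background, in which doxycycline (Dox) induces Isl1-Lhx3, a fusion of LIM-homeodomain factors that specify spinal motor neurons. Whether the line is 1 clone is not stated. The study asked how the fusion sets motor neuron fate and holds back interneuron programs. All aggregates spent 2 days in stem cell medium with LIF and 2 days in 0.5 µM all-trans retinoic acid. They were then kept in retinoic acid for 2 to 3 more days, either without Dox (2 libraries) or with 2 µg/mL Dox (2 libraries). Every library carries the inducible factors and has seen retinoic acid, and no cells without the transgene received Dox, so the effects of Dox and of the induced factors cannot be told apart. The comparison is Dox against no Dox, and the libraries without Dox are called controls here. The design text calls the replicates biological, without saying whether they were separate differentiations, so the p-values measure the spread between these samples.

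BMP ligands are secreted dimers that bring together type I and type II receptor kinases. The type I receptor then phosphorylates Smad1, Smad5 or Smad9, which enter the nucleus with Smad4 and switch on targets such as the Id genes, whose products block basic helix-loop-helix factors. Secreted antagonists such as Noggin and Chordin bind the ligands before they reach a receptor, and the inhibitory Smads and the pseudoreceptor Bambi act on the receptor side. In the neural tube, BMPs from the roof plate pattern the dorsal side, where commissural and other dorsal interneurons arise, while motor neurons arise ventrally.

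The promoters of Bmpr1b, the receptor with the clearest difference below, and of Id2 and Id3, known BMP targets whose values lay on opposite sides, are shown from RefSeq (GRCm38.p6, 250 bases before to 50 after each start, 5′ to 3′). The build is later than that of the counts and serves only for the sequences. Capitals mark CAGAC, part of a Smad binding element, and GGCGCC, a GC-rich Smad1 and Smad5 motif, on either strand.
Bmpr1b, first start, chr3:141982215-141982514, minus strand: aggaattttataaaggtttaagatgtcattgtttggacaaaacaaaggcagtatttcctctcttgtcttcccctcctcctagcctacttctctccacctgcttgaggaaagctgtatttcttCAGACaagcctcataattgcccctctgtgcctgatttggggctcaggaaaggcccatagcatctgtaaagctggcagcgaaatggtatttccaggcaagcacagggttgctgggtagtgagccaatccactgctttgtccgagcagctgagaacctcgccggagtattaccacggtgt
Bmpr1b, second start, chr3:141931539-141931838, minus strand: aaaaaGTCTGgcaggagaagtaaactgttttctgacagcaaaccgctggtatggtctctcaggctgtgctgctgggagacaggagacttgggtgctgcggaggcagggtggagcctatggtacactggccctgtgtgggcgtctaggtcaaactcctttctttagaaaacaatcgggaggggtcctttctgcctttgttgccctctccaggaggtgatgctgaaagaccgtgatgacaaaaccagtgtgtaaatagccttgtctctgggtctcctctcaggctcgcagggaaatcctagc
Id2, chr12:25096043-25096342, minus strand: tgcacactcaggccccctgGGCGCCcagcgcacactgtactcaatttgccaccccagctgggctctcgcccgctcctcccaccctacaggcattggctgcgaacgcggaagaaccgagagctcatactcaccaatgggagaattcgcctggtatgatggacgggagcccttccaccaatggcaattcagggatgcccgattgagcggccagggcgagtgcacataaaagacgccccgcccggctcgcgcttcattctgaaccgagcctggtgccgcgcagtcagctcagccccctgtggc
Id3, chr4:136143572-136143871, plus strand: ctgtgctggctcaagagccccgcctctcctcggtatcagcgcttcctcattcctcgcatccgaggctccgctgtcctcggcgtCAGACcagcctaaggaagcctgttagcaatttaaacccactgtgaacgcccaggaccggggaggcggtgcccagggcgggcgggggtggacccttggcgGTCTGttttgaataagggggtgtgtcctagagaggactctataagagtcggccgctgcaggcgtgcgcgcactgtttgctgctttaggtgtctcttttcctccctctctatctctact
Of the 33 members, 22 had a promoter in the RefSeq table, with 26 promoters between them. GGCGCC was in 10 of these 26, against 11.9% of all 32851 promoters, and CAGAC in 11 of 26, against 49.6%. The motifs can share a single letter where they adjoin. The homeodomain core TAATTA was in none of the 26, against 5.29% of all promoters. Id2 carried 1 GGCGCC and no CAGAC, Id3 the reverse with 2 CAGAC matches, and the shown Bmpr1b promoters 1 CAGAC each. Another Bmpr1b window in the table, chr3:141931371-141931670, overlaps the second one shown, holds neither motif and is not printed. A match describes letters in a window and is not a measured binding site.

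Counts over gene parts summed to between 24020832 and 53903936 per library. Values are counts per 1000000 (CPM). Lhx3 measured 0.404 and 0.286 CPM in the controls and 125 and 108 CPM in the Dox libraries, and Isl1 3.08 and 5.83 against 104 and 82.4 CPM, so both followed the labels. These counts cannot separate the fusion transgene from the cells' own genes. The 8 motor neuron markers together held 8.04 and 9.91 CPM in the controls and 352 and 317 CPM in the Dox libraries. That list contains Isl1 and Lhx3, its largest genes with Dox, so the sum is no separate check of the induction. Among its other genes, Mnx1 measured 2.31 and 0.938 CPM in the controls and 48.5 and 43.9 CPM in the Dox libraries. Isl2 measured 1.36 and 2.08 against 3.29 and 3.13 CPM. The aggregates were not neural alone: 12 markers of primitive and visceral endoderm summed to 19432 and 21589 CPM in the controls and 19691 and 23403 CPM in the Dox libraries, with none of the 12 at 0 and none called. Laminin Lama1 and Sparc made up most of that sum. The list was uneven: Gata4 ranged from 553 to 644 CPM over the libraries. Afp ranged from 0.571 to 2.16, Apoa1 from 0.294 to 1.12 and Ttr from 2.86 to 7.43 CPM.

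No member passed the threshold. Of the 33, 32 had enough counts for the fit across 14278 genes and Gdf7 did not, and edgeR's quasi-likelihood test called 0 higher and 0 lower at an adjusted p under 0.05. Over all genes tested, 1.23% were called higher and 0.056% lower, so 0 of 32 does not set the members apart from other genes. At an unadjusted p under 0.05, 8 members were higher and 3 lower, against 6.25% and 4.01% of all genes in those directions. Limma-voom also called 0 members (background 1.20% higher and 0.091% lower). With DESeq2 the only call was Bmpr1b, lower (background 2.82% higher and 0.812% lower). In 13 of the 32 members both Dox libraries lay above both others, and in 4 both lay below, against 18.9% and 19.9% of all genes. The members' median log2 fold change was 0.08, against -0.01 for all genes, and 23 of 32 lay above 0, against 47.1% of all genes. The 8, the 13 and the 23 each include Bmp3, which passed the filter only through its Dox libraries.

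**Figure D1:**
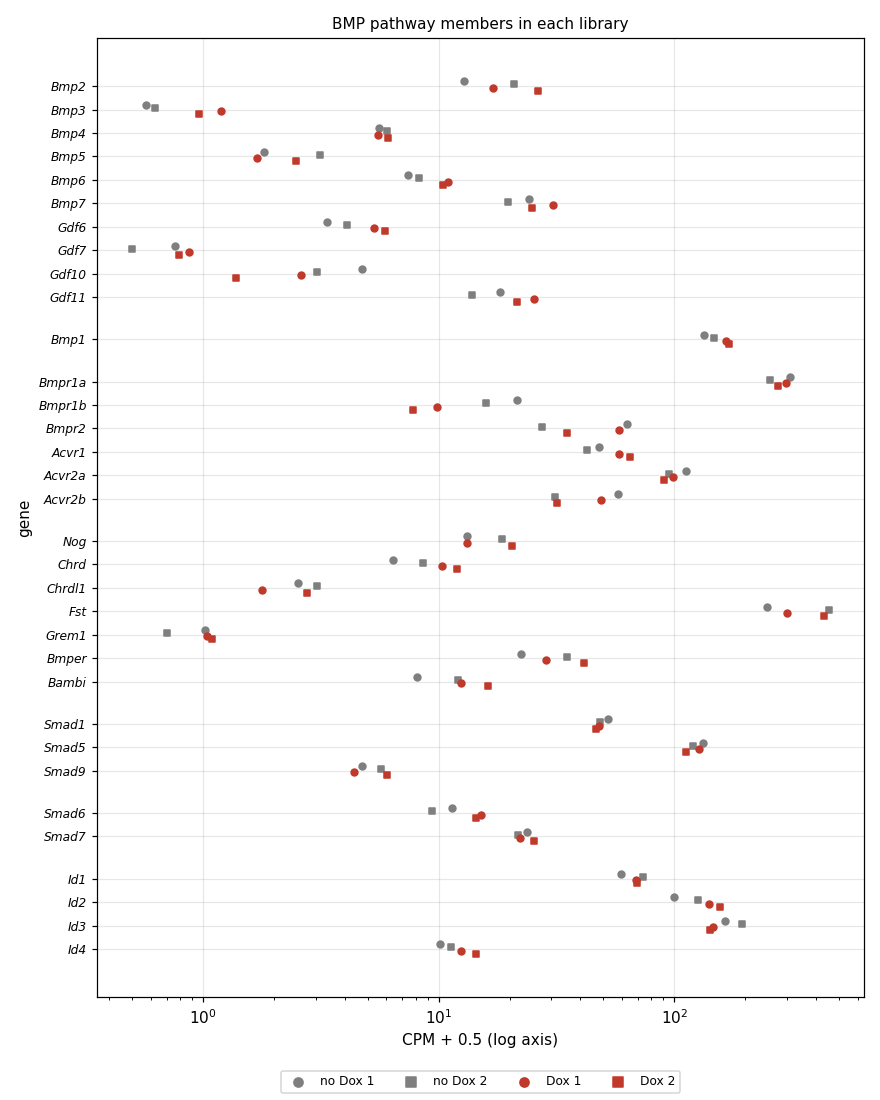
Level of each of the 33 members in each library, as CPM + 0.5 on a log axis, grouped by role (ligands, Bmp1, receptors, antagonists, signalling Smads, inhibitory Smads, Id genes). Grey is without and red with Dox, circles are replicate 1 and squares replicate 2; the groups overlap in 15 of the 32 tested members, while Bmpr1b lies between 15.4 and 21.1 CPM without Dox and between 7.28 and 9.31 CPM with it.

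Of the 9 tested ligands none was called. In 5, Bmp3 among them, both Dox libraries lay above both controls and in 1 (Gdf10) below, against 18.9% and 19.9% of all genes. In Bmp2, Bmp4 and Bmp5 the groups overlapped. Per kb of annotated exon, the most abundant ligand was Bmp7, with a mean of 6.61 CPM per kb over the 4 libraries, followed by Bmp2 at 5.27 and Gdf11 at 4.74, whose library values overlap. Bmp7, made by the roof plate and by many epithelia, measured 23.6 and 19.1 CPM in the controls and 30.0 and 24.4 CPM in the Dox libraries. Its log2 fold change was 0.35 (95% interval -0.09 to 0.79, adjusted p = 0.615). Gdf11, which signals through the activin type of Smads and times neurogenesis in the spinal cord, measured 17.7 and 13.4 against 25.0 and 20.9 CPM (0.56, 0.09 to 1.03, adjusted p = 0.370). In both genes the Dox libraries lay above the others.

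Bmp6 measured 6.90 and 7.79 CPM in the controls and 10.5 and 9.96 CPM in the Dox libraries (log2 fold change 0.47, 95% interval 0.03 to 0.92, adjusted p = 0.435). Gdf6, a dorsal ligand in the embryo, measured 2.86 and 3.59 against 4.82 and 5.40 CPM (0.67, 0.08 to 1.25, adjusted p = 0.395). Neither pair of groups overlapped, and neither difference passed. Bmp3, a BMP that opposes other family members, was close to silent, at 0.0734 and 0.122 CPM in the controls and 0.696 and 0.458 CPM in the Dox libraries. That is 5 counts in both control libraries together against 51 with Dox, a ratio of 5.74 (exact 95% interval for counting error 2.30 to 18.4, adjusted p = 0.172). Bmp3 passed the filter on low counts only through its Dox libraries. It could thus enter the fit only as a gene higher with Dox, and its p-value and sign are not support for a change.

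Gdf10, the relative of Bmp3, went the other way, at 4.22 and 2.53 CPM in the controls and 2.11 and 0.879 CPM in the Dox libraries (log2 fold change -1.20, 95% interval -2.40 to -0.01, adjusted p = 0.484). Without Dox replicate 1 the difference was -1.94 and passed (adjusted p = 0.0263), and without Dox replicate 2 it was -0.66, so its size depends on single libraries. Over 11 alternatives without a term for replicate number, its adjusted p ran from 0.0263 to 1. Bmp4, the ligand most used to dorsalise neural cells in culture, differed least among the tested ligands, at 5.10 and 5.51 against 5.03 and 5.62 CPM, and its interval of -0.50 to 0.51 leaves out a change of 2-fold. Bmp2 measured 12.3 and 20.3 against 16.5 and 25.8 CPM and Bmp5 1.32 and 2.65 against 1.20 and 1.98 CPM, both with overlapping groups. Gdf7, a roof plate ligand, had 7 counts without Dox, all in replicate 1, and 30 with Dox (ratio 2.41, counting interval 1.04 to 6.50). The 0 counts in no Dox replicate 2 allow up to 0.122 CPM. The 9 tested ligands had a median of 0.38, with 7 above 0, Bmp3 among them.

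Bmp1, despite its name, is no ligand but a metalloprotease that cleaves Chordin and procollagens. It measured 133 and 147 CPM in the controls and 165 and 170 CPM in the Dox libraries, without overlap (log2 fold change 0.26, 95% interval -0.02 to 0.54, adjusted p = 0.528). Of its 22 parts, 12 lay higher in both Dox libraries and 0 lower.

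Among the receptors, the type I receptor Bmpr1b had the lowest adjusted p of all 32 members. It measured 21.1 and 15.4 CPM in the controls and 9.31 and 7.28 CPM in the Dox libraries. Both Dox libraries lay below both others, by 1.14 on the log2 scale (log2 fold change -1.14, SE 0.23, 95% interval -1.69 to -0.59), with an adjusted p = 0.102 in edgeR, which misses the threshold. DESeq2 gave an adjusted p = 0.000886, and edgeR with no filter on low counts gave 0.0388, a fit that called 1.67% of genes higher and 0.261% lower. Leaving out no Dox replicate 2 gave 0.0102 and leaving out Dox replicate 1 gave 0.0151. It did not pass without no Dox replicate 1 (0.128) or without Dox replicate 2 (0.177). Over the 12 alternatives without a term for replicate number, the adjusted p ran from 0.000886 to 0.177 and the difference from -1.35 to -0.89, so Bmpr1b had a lower value with Dox in all 12.

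The difference in Bmpr1b ran along most of the gene. Of its 11 parts, 10 had at least 20 counts over the libraries, and all 10 had a lower mean CPM with Dox, with log2 ratios from -0.49 to -1.55. In 7 of the 10 the groups did not overlap. Part 11, with 19 counts, was not lower, at 0.11 and 0.122 CPM in the controls and 0.187 and 0.11 CPM in the Dox libraries. Part 1 held most counts, at 13.2 and 11.4 CPM in the controls and 5.40 and 5.16 CPM in the Dox libraries (log2 ratio -1.22). The parts share the same 4 libraries and are not replicates.

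**Figure D2:**
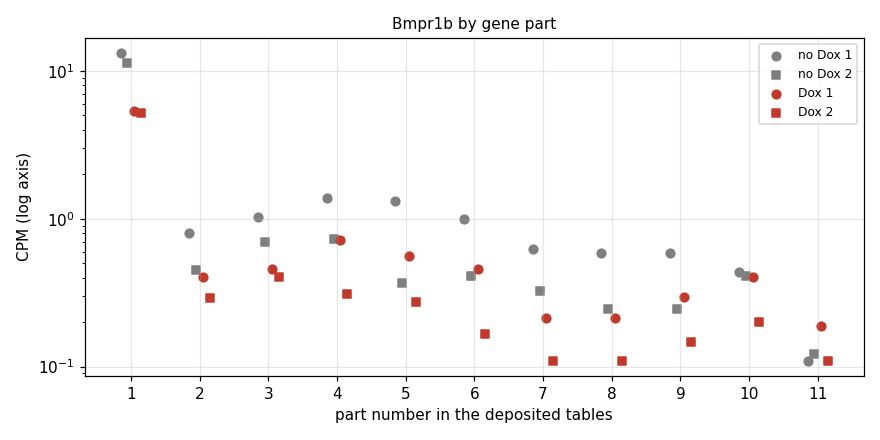
CPM of the 11 parts of Bmpr1b in each library on a log axis, against the part number in the deposited tables; grey is without and red with Dox. In 7 of the 10 parts with at least 20 counts both red points lie below both grey points, and part 1 lies at 13.2 and 11.4 against 5.40 and 5.16 CPM.

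Of the other neural marker lists, progenitor, neural crest, general neuron and floor plate markers had lower sums in both Dox libraries. The roof plate sums overlapped, but that list's median log2 fold change was -0.62, against -0.66 for the progenitor markers and -0.01 for all genes. Of its 10 genes 3 lay above 0, against 47.1% of all genes. The 9 neural progenitor markers summed to 640 and 521 CPM in the controls and 415 and 279 CPM in the Dox libraries, with 7 of 9 lower and 1 higher without overlap (19.9% and 18.9% of all genes), 0 called and none at 0. The 10 roof plate and dorsal markers summed to 231 and 161 against 175 and 101 CPM, with 4 lower and 2 higher without overlap, against those same shares of all genes. The 7 neural crest markers summed to 116 and 105 against 68.9 and 61.8 CPM, and the 8 general neuron markers to 433 and 351 against 314 and 234 CPM. The 6 floor plate markers summed to 157 and 137 against 108 and 118 CPM. Of the 5 tested, 2 were lower and 1 higher without overlap, against the same shares of all genes. The part of these cells in the difference of Bmpr1b was not tested. In bulk RNA, fewer cells of a type and less RNA per cell cannot be told apart.

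Bmpr1a, the related type I receptor, was the most abundant receptor at a mean of 47.8 CPM per kb, and measured 309 and 255 against 299 and 275 CPM. Its log2 fold change of 0.02 had an interval of -0.32 to 0.37. Acvr1, a further type I receptor, had the opposite sign, at 47.3 and 42.2 CPM in the controls and 58.0 and 64.6 CPM in the Dox libraries, without overlap (0.45, SE 0.13, 95% interval 0.14 to 0.76, adjusted p = 0.241). The intervals of Bmpr1b and Acvr1 lie on opposite sides of 0, and the difference between the genes was not tested.

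The type II receptors Bmpr2 and Acvr2b differed more between replicate numbers than between groups. Bmpr2 measured 62.3 CPM in no Dox replicate 1 and 57.7 CPM in Dox replicate 1, but 26.9 and 34.5 CPM in the replicate 2 libraries. Acvr2b behaved alike, at 57.1 and 48.4 CPM in the replicate 1 libraries and 30.8 and 31.3 CPM in the others. Acvr2a measured 112 and 94.9 CPM in the controls and 98.3 and 89.6 CPM in the Dox libraries (log2 fold change -0.14, 95% interval -0.46 to 0.18). The interval of Bmpr2, -0.98 to 1.07, is wide, and a change of nearly 2-fold either way is within it.

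Of the 7 antagonists none was called. Their median was 0.29 and 6 lay above 0, but only 4 did without no Dox replicate 1 (Bmper at 0.00) or without Dox replicate 2. Follistatin (Fst), which traps activins and some BMPs, dominated at 248 and 452 CPM in the controls and 301 and 431 CPM in the Dox libraries. Both Dox values lay between the controls (log2 fold change 0.06, 95% interval -0.70 to 0.82, adjusted p = 0.989). Its mean level was 321 CPM per kb over the transcripts matched to the counts and 78.0 CPM per kb over all its annotated exons, so the level per length depends on the transcript, but it ranked first or second among the 32 members either way. Its values were higher in both replicate 2 libraries, as was the summed endoderm marker level given above; whether the source is endoderm was not tested.

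Chordin (Chrd), a BMP trap and the substrate of Bmp1, measured 5.87 and 8.12 CPM in the controls and 9.82 and 11.5 CPM in the Dox libraries. Both Dox libraries lay above both others (log2 fold change 0.61, SE 0.23, 95% interval 0.06 to 1.17, adjusted p = 0.424). Of 21 parts of Chrd with at least 20 counts, 10 were higher and 2 lower without overlap. Noggin (Nog) did not show this, at 12.7 and 18.1 against 12.7 and 19.9 CPM, with an interval of -0.59 to 0.77. Bmper, which binds BMPs and can inhibit or promote their action, measured 21.9 and 34.6 against 28.0 and 40.8 CPM (0.29, adjusted p = 0.846). The pseudoreceptor Bambi, itself a BMP target, measured 7.56 and 11.6 against 11.9 and 15.7 CPM, without overlap (0.53, 95% interval -0.12 to 1.17, adjusted p = 0.600). Chrdl1, a Chordin relative, and Grem1, a further trap, were low, at 1.28 to 2.53 and 0.204 to 0.586 CPM.

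**Figure D3:**
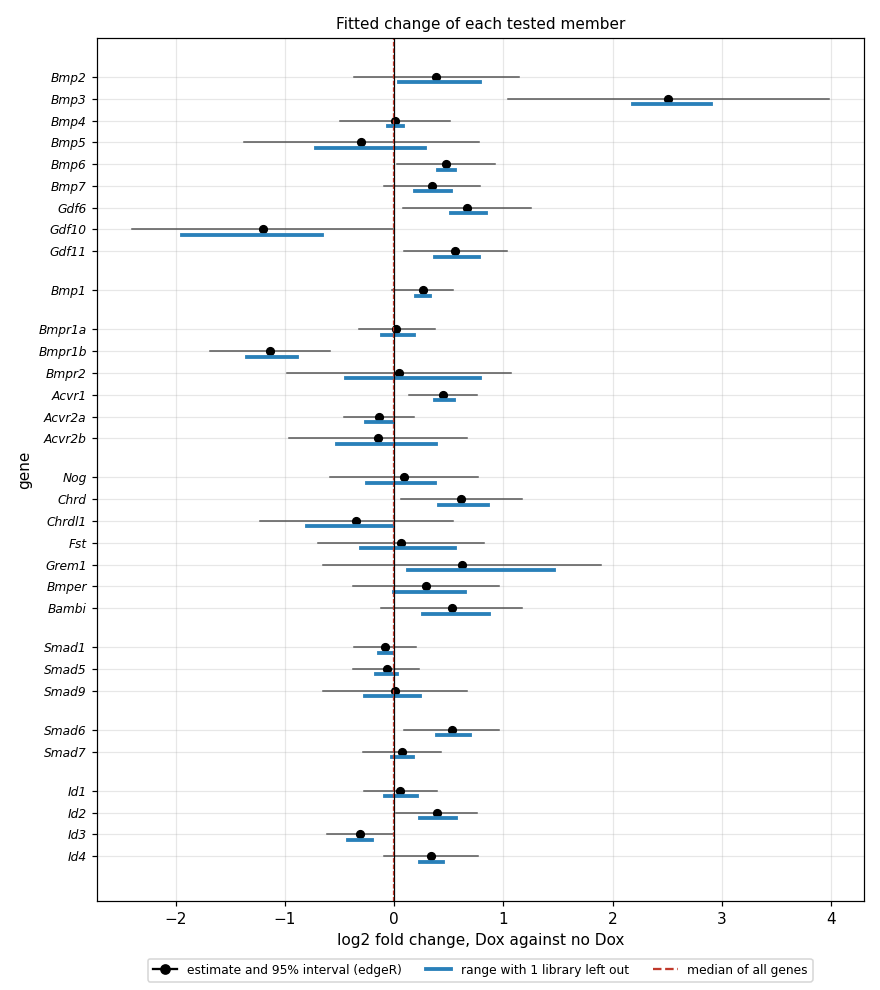
Log2 fold change (Dox against no Dox) of the 32 tested members from edgeR, with 95% intervals in dark grey, the range when each library is left out in turn in blue, and the median of all genes (-0.01) as a dashed line. The intervals of Bmpr1b (-1.69 to -0.59) and Bmp3 (1.04 to 3.98) lie farthest from 0, and those of the signalling Smads and Id1 sit around it. Bmp3 passed the filter on low counts only through its Dox libraries. No member passed adjustment over all genes.

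The signalling Smads, which carry the signal to the nucleus, had log2 fold changes from -0.08 to 0.01 and none was called. Smad5 measured 132 and 120 CPM in the controls and 127 and 112 CPM in the Dox libraries (log2 fold change -0.07, 95% interval -0.38 to 0.23), and Smad1 51.6 and 47.7 against 47.6 and 46.0 CPM (-0.08, -0.37 to 0.20). Smad9, the least abundant of these Smads, ranged from 3.85 to 5.55 CPM with overlapping groups (0.01, -0.65 to 0.67). For Smad1 and Smad5 a change of 1.5-fold is outside the interval. The inhibitory Smads, which act as feedback brakes and are themselves BMP targets, were not called, and the difference between them was not tested. Smad6 measured 10.9 and 8.85 CPM in the controls and 14.6 and 13.9 CPM in the Dox libraries, without overlap (0.53, SE 0.18, 95% interval 0.09 to 0.96, adjusted p = 0.352). Smad7 measured 23.3 and 21.2 against 21.6 and 25.0 CPM (0.07, -0.29 to 0.43).

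The Id genes, the textbook readout of the pathway, were abundant and lay on both sides of 0. Id3, Id2 and Id1 had mean levels of 126, 103 and 72.0 CPM per kb, more than any other member but Fst, against 3.01 for Id4. Id2 measured 99.5 and 126 CPM in the controls and 140 and 156 CPM in the Dox libraries, so the Dox libraries lay above (log2 fold change 0.39, SE 0.15, 95% interval 0.02 to 0.76, adjusted p = 0.450). Id3 measured 164 and 193 against 145 and 142 CPM, so its Dox libraries lay below (-0.31, SE 0.12, -0.62 to -0.01, adjusted p = 0.469). In Id3 all 3 parts were lower without overlap, and in Id2 all 3 had a higher mean with Dox, 2 of them without overlap. Id1 measured 59.1 and 72.9 against 68.0 and 68.9 CPM, with the Dox libraries between the others (0.05, -0.28 to 0.39). Id4 measured 9.65 and 10.8 against 11.9 and 13.9 CPM (0.34, adjusted p = 0.621). A change of 2-fold in either direction is outside the interval of each of the 4 genes.

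Other genes of the pathway gave few calls, as did all genes tested (1.23% higher and 0.056% lower in edgeR). Of 32 further extracellular genes 20 were tested, and 0 were called higher or lower by edgeR, with 3 higher and 1 lower at an unadjusted p under 0.05. Kcp, a Chordin-like protein that enhances BMP signalling, measured 4.26 and 8.45 CPM in the controls and 22.4 CPM in both Dox libraries (log2 fold change 1.82, SE 0.32, adjusted p = 0.0675). Fstl4, a follistatin-like gene, measured 0.661 and 0.734 against 1.63 and 1.54 CPM (1.18, adjusted p = 0.228). Of 9 tested receptors and co-receptors (12 listed) 0 were called, with 0 at an unadjusted p under 0.05. The lowest p-values there were those of Rgma, Rgmb and Tgfbr2, with log2 fold changes of -0.32, -0.48 and 0.33. All 24 further intracellular genes, among them Smad4, Smurf1 and Ski, were tested and 0 were called, again with 0 at an unadjusted p under 0.05. Their log2 fold changes ran from -0.21 to 0.28, with Tob2 at 0.28, Zfyve9 at -0.19 and Rnf111 at 0.17.

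Of 16 genes listed as other known targets of BMP signalling, 13 were tested. Of these, edgeR called 1 higher and 0 lower, against 1.23% and 0.056% of all genes. Tbx2, a T-box repressor, measured 2.79 and 3.35 CPM in the controls and rose with Dox, to 21.0 and 29.6 CPM (3.05 on the log2 scale, SE 0.24, edgeR adjusted p = 0.00442), and it was called in all 12 alternatives without a term for replicate number. The rest of the list went both ways, with a median of 0.05. Within the Msx family, chosen here after its values were seen, Msx1 measured 13.9 and 12.3 CPM in the controls and 44.5 and 23.3 CPM in the Dox libraries (1.37, SE 0.31, adjusted p = 0.149). Msx2 measured 25.9 and 21.8 against 20.4 and 17.4 CPM (-0.34, adjusted p = 0.588), and Msx3, found in the dorsal neural tube, 21.5 and 15.7 against 6.39 and 3.61 CPM (-1.91, SE 0.32, adjusted p = 0.0632). Olig3, a factor of dorsal progenitors, also chosen after its values were seen, measured 7.63 and 3.26 against 0.776 and 0.275 CPM (-3.43, SE 0.62, adjusted p = 0.0755). Msx1, Msx2, Msx3 and Olig3 did not pass in edgeR, and in all of them the groups did not overlap. DESeq2 called Msx1 (adjusted p = 0.000415), Msx3 (5.45e-07) and Olig3 (4.6e-07), and also Kcp (4.6e-07). Over the same alternatives the adjusted p reached 0.251 for Msx1, 0.111 for Msx3, 0.119 for Olig3 and 0.197 for Kcp. Msx3 and Olig3 are also dorsal neural tube genes, whose marker list had overlapping sums and a median of -0.62, as given above. The part of cell numbers in the values of Msx3 and Olig3 was not tested.

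**Figure D4:**
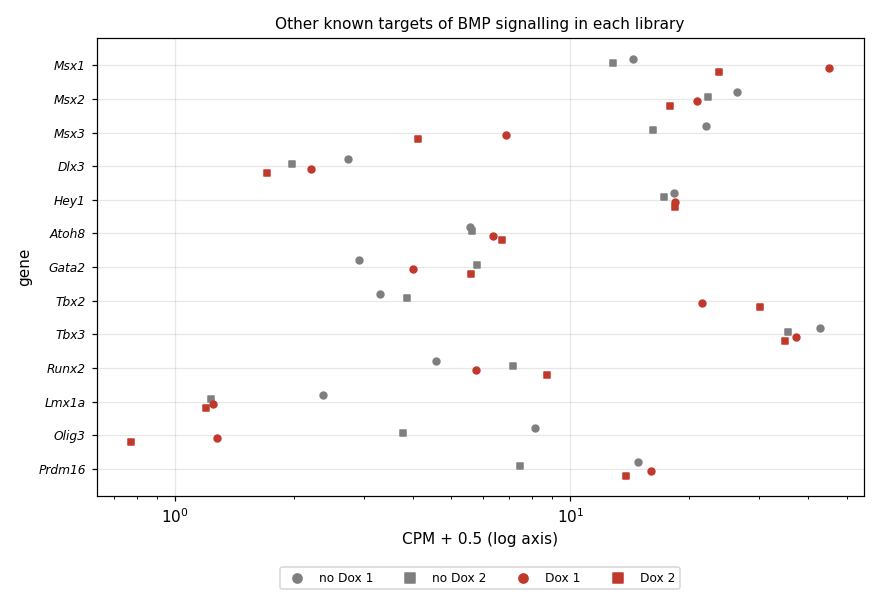
Level of the 13 tested genes listed as other known targets of BMP signalling in each library, as CPM + 0.5 on a log axis; grey is without and red with Dox, circles replicate 1 and squares replicate 2. Tbx2 lies at 21.0 and 29.6 CPM with Dox against 2.79 and 3.35 CPM without, Msx1 and Msx3 separate in opposite directions, and Hey1 and Tbx3 lie close together.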

How the data were processed

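Libraries followed Illumina TruSeq RNA preparation and were multiplexed, per the labels' protocols. The submitters' processing notes name TopHat and mouse build mm9; for versions, counting tool, annotation and strand the sources used here give nothing. The deposited tables hold whole-number counts for 208825 gene parts. Whether a read spanning several parts was counted in each is not stated, and without strand overlapping genes cannot be separated. The 4 lines naming no gene were left out (0.411% to 0.521% ambiguous and 13.6% to 15.8% outside genes, the others at 0).

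Parts were summed to 21822 units, and 97.1% of 27601 RefSeq identifiers were named from RefSeq (GRCm38.p6) or GENCODE M21, which also gave exon lengths. Groups came from the sample titles. Genes were fitted with edgeR 4.0.16 in R 4.3.3 (TMM, default filter, robust quasi-likelihood F test, Benjamini-Hochberg adjustment at 0.05 over all 14278 genes). CPM are TMM-scaled. Intervals of a log2 fold change are estimate and SE with the fit's t quantile; the SE was taken from the F statistic. DESeq2 1.42.0 and limma 3.58.1 (voom) were alternatives. Counting noise alone did not account for the replicates' spread (chi-square over its degrees of freedom 36.5 without and 32.6 with Dox). The fits were tested on simulated data, with 100 genes changed 2-fold, 100 changed 4-fold and each library drawn independently. EdgeR recovered 78% and 99% of these with 18 false calls, and limma-voom 76% and 99% with 19. DESeq2 recovered 81% and 98% with 26 false calls. EdgeR with a term for replicate number recovered 82% and 99% with 35. In all, 13 alternatives were run.

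The members and lists were chosen with earlier results of these data known. All library values are given for members with an unadjusted p under 0.05, for those whose groups did not overlap and differed by over 1 (log2), and for the 2 with the largest mean CPM of each class; values of other members were added for their roles, after they were seen. Of each other pathway list, called genes are named, or the 3 with the smallest p. A gene that this rule would name is not reported here. Intervals on counts cover counting error only.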

Additional observations from a re-analysis of the deposited data

How the results depend on the processing

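No member was called with DESeq2 size factors, library totals, limma-voom, dispersions that were not robust, the largest part of each gene, a mean of at least 5 CPM, or when either no Dox replicate 1 or Dox replicate 2 was left out. With 1 library left out, 0 members were called higher, and 0 to 2 lower (Bmpr1b, and without Dox replicate 1 also Gdf10). No filter and DESeq2 each called 1 lower, Bmpr1b. Over all genes, 175 higher and 8 lower calls became 295 and 46 with no filter, 104 and 4 at a mean of 5 CPM and 403 and 116 in DESeq2. The lower calls were 16 with library totals, 13 in limma-voom and 14 with the largest part. With 1 library left out the calls ran from 271 to 280 higher and from 19 to 116 lower; these fits leave 1 group with a single library, assumed to vary like the other group.

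The median of all members (0.08) ran from 0.10 to 0.28 with 1 library left out, and that of the ligands (0.38) from 0.36 to 0.52. Those of the receptors (-0.06) ran from -0.35 to 0.28, changing sign, and those of the antagonists (0.29) from 0.00 to 0.56, within 1 SD between replicates; the Smad and Id medians also stayed within it. Of the 32 members, 8 had the opposite sign or a value rounding to 0.00 when no Dox replicate 1 was left out. For no Dox replicate 2 there were 4, and for Dox replicates 1 and 2 there were 3 and 7. Why the values moved was not tested.

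Replicate numbers are shared between groups by number only. Deviations from the group means of same-numbered libraries correlated at 0.641 across genes, which are not independent. A block on replicate number in edgeR gave 1044 genes higher and 862 lower (13.3% of 14278 genes), with 11 members higher and 3 lower: Bmp1, Bmp2, Bmp3, Bmp7, Gdf6, Gdf11, Acvr1, Chrd, Bambi, Smad6 and Id2 higher, and Bmpr1b, Gdf10 and Id3 lower. The labels do not say that the numbers mark a shared batch, so these are not taken as results. The lowest adjusted p under the block was 9.61e-06, for Bmpr1b. Depth limits Bmp3, Gdf7 and Grem1, which rest on few control counts.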

Other observations

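The difference between replicate numbers had the same sign in both groups in 26 of the 32 tested members and the opposite sign in 6 (Bmp3, Bmp6, Acvr1, Grem1, Smad7 and Id3, as in Grem1 with 1.33 without and -0.13 with Dox). The log2 ratio of replicate 1 to replicate 2 without Dox and the same ratio with Dox had a Pearson correlation of 0.67 and a Spearman correlation of 0.73 over these genes, which share their libraries. Bmpr2 was higher in replicate 1 by 1.21 without and 0.74 with Dox, and Acvr2b by 0.89 and 0.63. Fst had ratios of -0.87 and -0.52, Bmp2 of -0.73 and -0.64, and Bmper of -0.66 and -0.54. The ratio correlated weakly with exon length (Pearson 0.33 without and 0.27 with Dox).

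Of 7 tested mesenchyme markers, edgeR called 3 higher, Col1a1, Col3a1 and Prrx1, and 0 lower, against 1.23% and 0.056% of all genes. The other 4 did not pass, among them Pdgfra, which holds most of the list's CPM and had a mean of 446 ± 29.5 CPM in the controls and 390 ± 1.5 CPM with Dox (SD, n = 2 each), without overlap. Col3a1, a fibrillar collagen whose precursor is cut by Bmp1, rose with Dox, from 12.8 and 15.7 to 74.2 and 61.2 CPM (edgeR adjusted p = 0.004), while Bmp1 itself did not pass. Prrx1, a homeodomain factor of limb and head mesenchyme, rose with Dox, from 2.61 and 3.63 to 35.3 and 25.1 CPM (edgeR adjusted p = 0.0045).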
